A study of Mus musculus with 8 samples.

Results

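The regions described here are stretches of chromatin whose H3K27ac peak was not called after EGF was given to mouse pancreatic acinar cells with intact Arid1a, but was still found in at least part of the libraries when the same EGF was given after Arid1a knockdown. H3K27ac is acetylation of histone H3 at lysine 27, mapped in 266-6 cells, a tumour-derived mouse acinar line, by sequencing DNA pulled down with an antibody against the mark. Peaks of all 8 libraries that shared at least 1 bp were merged to 33920 regions, and 546 of them (1.61%) met the rule: no peak in either EGF library, a peak in both control libraries, and a peak in at least 1 of 2 libraries each of knockdown with EGF and of knockdown. Each of 4 groups had 2 libraries. Knockdown with EGF means siRNA against Arid1a (25 nM for 48 h) and then EGF at 40 ng/ml for 8 h, and knockdown means the same siRNA with the 0.1% BSA vehicle. EGF means a non-targeting siRNA and EGF, and control means that siRNA and the vehicle. Cells of all groups were transfected and then kept without serum overnight before EGF or vehicle. Intact and knockdown name the siRNA only: Arid1a itself was not measured here, and the siRNAs, 2 catalogue items listed under the spelling ARID1A, come with no statement on whether they match the mouse gene. The acinar identity of the line could not be checked on marker genes, because regions were not tied to genes.

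H3K27ac marks active promoters and enhancers and is written largely by the acetyltransferases p300 and CBP. Arid1a is a DNA-binding subunit of the BAF form of the SWI/SNF remodelling complex, which moves nucleosomes with energy from ATP and is known to keep enhancers open to transcription factors and to p300. EGF acts through its receptor and the ERK pathway, and in pancreatic acinar cells signalling of this kind is known to drive a shift from acinar to duct-like identity.

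The choice rests on peak presence in all 8 libraries, so the absence of peaks with EGF, and the presence of at least 1 peak with knockdown and EGF, are what defined the regions and not findings. Values from these libraries are given as descriptions. The libraries held between 22030 and 28281 peaks that covered 33.9 to 48.7 Mb. The lists of both groups given EGF were of like size, with 22030 and 23256 peaks for knockdown with EGF and 22361 and 23080 for EGF. The knockdown lists were longer, with 26844 and 27558 peaks. They covered 46.3 and 48.7 Mb, against 34.2 and 36.8 Mb for knockdown with EGF. Comparisons of knockdown with EGF and knockdown below are thus between lists of unlike size. The first control list, whose omission changed membership most, was short, at 22167 peaks against 28281 in the second. The number of reads behind each list is unknown, and a missing peak does not mean missing acetylation. Nothing in the labels says that duplicates came from separate cultures, and p-values then measure only the spread between these samples.

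In intact cells 1444 regions had a peak in neither EGF library and in both control libraries, and the 546 made up 37.8% of them (95% Wilson interval 35.3 to 40.3%, which covers counting error only). Dropping the first control library gave a share of 20.0%, and dropping the second library of knockdown with EGF one of 24.3%. Most other losses, 545 regions, had no peak in either library of knockdown with EGF and one in both knockdown libraries, so EGF went with loss in both Arid1a states there. The regions were not evenly firm in the knockdown. A peak in both libraries of knockdown with EGF was present in 240 (44.0%), in the first alone in 111 (20.3%) and in the second alone in 195 (35.7%). Both knockdown libraries without EGF held a peak in 502 (91.9%). The firmest class, with a peak in all 6 libraries outside the EGF group, held 230 regions (42.1%). It held 429 without the first control library, 440 and 585 when the first or the second EGF library was dropped, and 400 without the first library of knockdown with EGF.

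**Figure D1:**
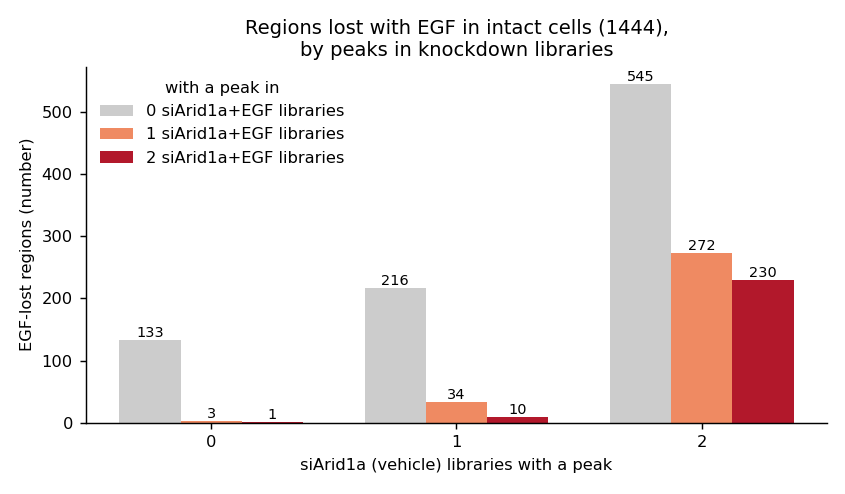
Number of regions lost with EGF in intact cells (y axis), grouped by how many siArid1a libraries (x axis) and siArid1a+EGF libraries (colours) held a peak. Among regions with peaks in 2 siArid1a libraries, 545 had none in the siArid1a+EGF libraries, 272 had one in 1 of them and 230 in both.

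The rule with the Arid1a states exchanged gives a group to set beside these: no peak in either library of knockdown with EGF, a peak in both knockdown libraries, and a peak in at least 1 library each of EGF and of control. It held 784 regions, which was 27.5% of the 2850 regions lost with EGF in knockdown cells (95% Wilson interval 25.9 to 29.2%). The 546 regions were thus fewer than their counterpart, and a larger share of the losses they belong to. The denominators are unlike in size, and both knockdown lists were longer than the first control list. In addition, more of the losses in knockdown cells had no peak in the other Arid1a state without EGF. Over losses with such a peak, the shares were 41.8% (546 of 1307; 39.1 to 44.5%) and 34.5% (784 of 2273; 32.6 to 36.5%). A peak in both libraries of knockdown with EGF was found in 240 of the 546 (44.0%), and a peak in both EGF libraries in 333 of the 784 (42.5%). All these counts come from the same 8 libraries, and the differences between them were not tested.

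Membership depended on single libraries. Without the first control library 1186 regions met the rule, without the first or second EGF library 899 or 1065, and without the second library of knockdown with EGF 351. Leaving out a control or EGF library can only add regions, because the rule then asks for 1 library fewer, and leaving out a knockdown library can only remove them. The value limits that bound the rule were also soft. A further 872 regions missed it by a peak in 1 EGF library alone, and the median −log10 q-value of that peak was 1.85 (lowest 1.07). Within the 546, the stronger of the peaks with knockdown and EGF had a median −log10 q of 1.92 (lowest 1.08), and in 109 regions it was under 1.5. Another 690 regions had a peak in 1 control library only and met every other condition, and 761 met all but the last condition, with no peak in knockdown with EGF.

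**Figure D2:**
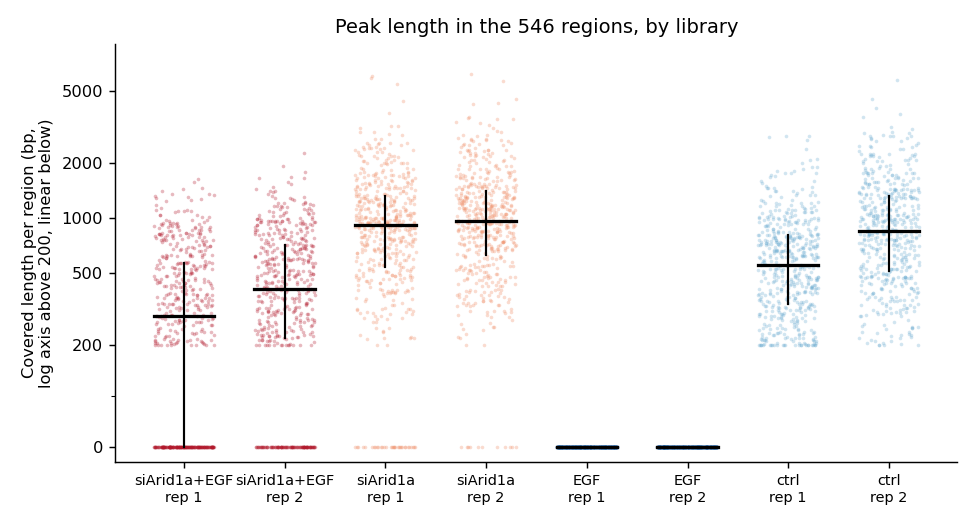
Covered length (bp, y axis, log scale above 200 bp and linear below) of each of the 546 regions in each library (x axis). Points are regions, horizontal bars are medians and vertical bars span the quartiles. Points at 0 have no peak, as the rule demands for both EGF libraries.

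The peaks that remained with knockdown and EGF were short and weak next to those of the same cells without EGF. Where a library held a peak, its median covered length was 469 and 512 bp in the libraries of knockdown with EGF, against 939 and 989 bp in the knockdown libraries. It was 554 and 849 bp in the control libraries. Over all regions of the series the same medians were 1226 and 1248 bp for knockdown with EGF and 1324 and 1330 bp for knockdown. Both libraries of knockdown with EGF thus lay below both knockdown libraries and below both control libraries in these medians.

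Peak height followed the same order. The authors' fold enrichment of a peak over the caller's background had a median of 3.57 and 3.48 in knockdown with EGF, 4.03 and 4.06 in knockdown, and 3.76 and 3.90 in control libraries. Ranked by score within their own list, these peaks stood at a median percentile of 13.9 and 15.3 for knockdown with EGF, 33.8 and 35.2 for knockdown, and 17.5 and 29.7 for control. The regions were weak in control cells as well: by definition the median of a list is near the 50th percentile, and the control peaks of these regions lay well under it. The 894 losses without any peak in knockdown with EGF had similar control peaks, at percentiles of 14.9 and 26.0 and lengths of 523 and 848 bp, but weaker knockdown peaks, at percentiles of 21.4 and 21.1 and lengths of 717 and 810 bp. Within the series the regions with a residual peak were thus like the other losses in control cells, and had longer and higher-scored peaks in knockdown cells given the vehicle. No test of this difference was made, since peaks in knockdown libraries were part of the choice.

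Without EGF, peak length in knockdown and control cells differed about as it did over any region. The median difference between knockdown and control cells in log2(covered bp + 200), a scale that understates changes of short peaks, was 0.30 over the 546 regions. It was 0.18 over all 28146 regions tested, which are those found in at least 2 libraries. Both knockdown libraries exceeded both control libraries in 191 regions (35.0%) and lay below both in 30 (5.49%). The background was 33.5% for higher and 6.58% for lower over all regions tested, so these shares were close to those of any region. In the 230 regions with 6 peaks the median difference was 0.42, and 112 (48.7%) had both knockdown libraries above both controls. The first control library had few and short peaks, and its part in these differences was not tested.

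EGF still went with a shorter peak in knockdown cells in most of the regions. Summed over both libraries, the length with knockdown and EGF was a median of 39.9% of that with knockdown alone (quartiles 24.0 and 61.1%). It was under 50% in 349 of the 546 regions and 100% or more in 32. In the 230 regions with a peak in all 6 libraries the median was 52.7%. For comparison, the 16607 regions with a peak in all 8 libraries kept a median of 84.5%, but these must have a peak in both libraries of knockdown with EGF. Of the 546 regions, 306 (56.0%) had a peak in exactly 1 of those libraries, so the choice fixes part of this gap. The 784 regions of the exchanged rule kept 52.8% with EGF in intact cells. The word blunted holds for the presence of a peak, which the rule fixed. The fitted loss of length was also smaller with knockdown, which the absence of EGF peaks in intact cells fixes in large part. The median fitted difference with EGF was -1.09 in knockdown cells and -2.14 in intact cells. Over all regions tested it was -0.32 and -0.14. In 35 of the 546 regions the fitted loss was the larger one with knockdown. The difference between these effects was not tested. A loss remained in most regions: the fitted length was lower with EGF in the knockdown cells in 512 of the 546 (93.8%; background 79.9%, so that most regions of the series shared this direction). All 546 were among the regions tested.

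On the log2(covered bp + 200) scale the median difference between knockdown with EGF and knockdown was -1.09 over the regions (quartiles -1.63 and -0.57), beside -0.32 over all 28146 regions tested. Both libraries of knockdown with EGF lay below both knockdown libraries in 385 regions (70.5%; background 51.9%) and above both in 1 (background 6.4%). Limma, fitted over all regions with Benjamini-Hochberg adjustment, called 31 regions lower (5.68% of the 546; background 6%) and 0 higher (background 0.622%). At an unadjusted p under 0.05 it found 191 lower (35.0%; background 22.9%) and 0 higher (background 2.03%). Over all regions it called 1689 lower and 175 higher, and after quantile normalization of the libraries 522 lower and 380 higher. The rule read the same libraries, so the counts are a description and support no change. The 31 calls fell to 0 without the first or second knockdown library or without the first library of knockdown with EGF, and to 1 without the second. Dropping a control library gave 88 (first) or 62 (second) calls, and dropping an EGF library gave 12 (first) or 19 (second), with membership redrawn in each case. These shifts were series-wide: over all regions limma called 12.7 and 13.8% lower without a control library, 2.94 and 2.86% without an EGF library, and at most 0.223% without any one knockdown library. The median was -0.52 and -0.69 without the first and second library of knockdown with EGF, as the regions must then have a peak in the one that is left.

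**Figure D3:**
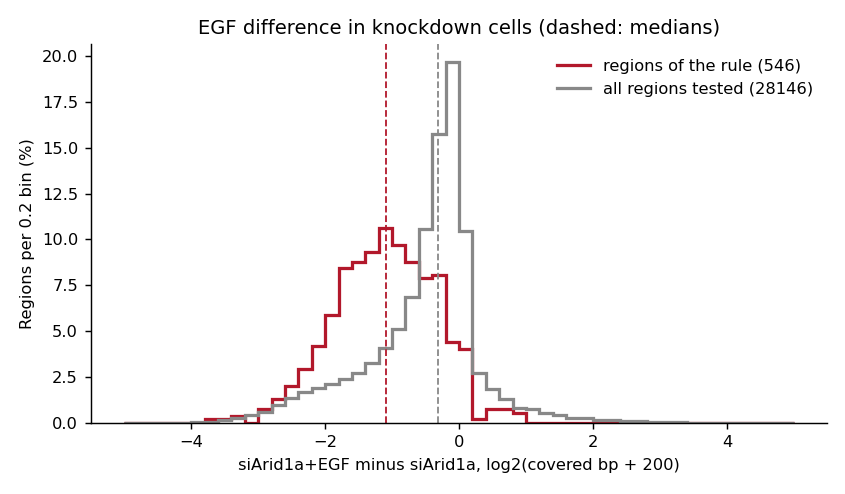
Distribution of the difference between knockdown with EGF and knockdown on the log2(covered bp + 200) scale (x axis) for the 546 regions and for all 28146 regions tested (y axis, percent of each set per bin). Dashed lines mark the medians of -1.09 and -0.32, and 93.8% of the 546 regions and 79.9% of all regions tested lie to the left of 0.

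Wider regions kept a smaller percentage of their length, which the choice of measure fixes in part: width is the union of the peaks, mostly of the long knockdown and control peaks, and the knockdown length is what the percentage is taken of. The 116 regions of 2000 bp or more kept a median of 26.7% of their knockdown length with EGF, the 277 regions of 1000 bp to under 2000 bp kept 40.3%, and the 153 narrower ones kept 49.4%. Mean covered length in the widest class had a median of 529 bp with knockdown and EGF, 1853 bp with knockdown and 1363 bp in control cells. In the narrowest class these medians were 249, 523 and 439 bp. The share with peaks in all 6 libraries ran the other way, at 54.3% of the widest, 43.0% of the middle and 31.4% of the narrowest class.

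Since all peaks of a region were merged by overlap, the rule nearly fixes that what remained lay where the control peak was, and the following values are a description. A peak of knockdown with EGF overlapped a control peak directly in 541 of the 546 regions, and both control peaks in 512, so that only 5 were joined to it through peaks of other libraries. The midpoints of 796 such peaks lay a median of 86.3 bp from the nearest control midpoint, and 753 (94.6%) lay within 500 bp. The peaks were rarely split. Of the 351 and 435 regions with a peak in the first and second library of knockdown with EGF, 4 and 6 held more than 1.

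A comparison with libraries left out of the choice comes from the other replicate, although the rule above read the libraries of both replicates. Regions were chosen on libraries of one replicate number alone, with a peak in control, none in EGF, and a peak in knockdown and in knockdown with EGF, and were then read in the libraries of the other number. Of 782 regions chosen on the first replicate, 78.5% had a peak in the second library of knockdown with EGF (95% Wilson interval 75.5 to 81.3%) and 54.0% had one in the second EGF library (50.5 to 57.4%). Of 1331 chosen on the second, 58.5% had a peak in the first library of knockdown with EGF (55.8 to 61.1%) and 34.1% in the first EGF library (31.6 to 36.7%). The excess in knockdown with EGF was 24.6 and 24.3 percentage points. Many EGF peaks that the choice had counted as lost were thus present in the other EGF library. Peaks without EGF were not always found again either. Of the regions chosen on the first replicate, 98.0% had a peak in the second knockdown library and 95.9% in the second control library, and of those chosen on the second, 90.8% had one in the first knockdown library and 54.2% in the first control library. That last share is below the 58.5% of the first library of knockdown with EGF, and the first control list is the short one.

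The exchanged choice gave the opposite order to a like extent. Of 854 regions with a peak in the first EGF library and none in the first of knockdown with EGF, 53.3% had a peak in the second library of knockdown with EGF and 77.5% in the second EGF library. Chosen on the second replicate, 1122 regions had 31.7% and 58.4%. The difference between knockdown with EGF and EGF was -24.2 and -26.6 percentage points. Where neither of the libraries used for the choice had a peak, the second replicate held 23.8% with knockdown and EGF and 23.7% with EGF (1207 regions), and the first 12.2% and 11.4% (2651 regions). With all peaks, the order of the Arid1a states under EGF chosen in one replicate was seen again in the other. The margins were then similar for retention and for loss. With peaks of a −log10 q of at least 2 alone, the margins were not similar. They were 17.4 and 30.9 points for the choice and -24.1 and -8.24 points for the exchanged one. Regions are not independent replicates, intervals cover counting error only, region borders were drawn from all 8 lists, and no p is given. The split reused the 8 libraries that the rule read, so whether the order holds in other samples was not tested.

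**Figure D4:**
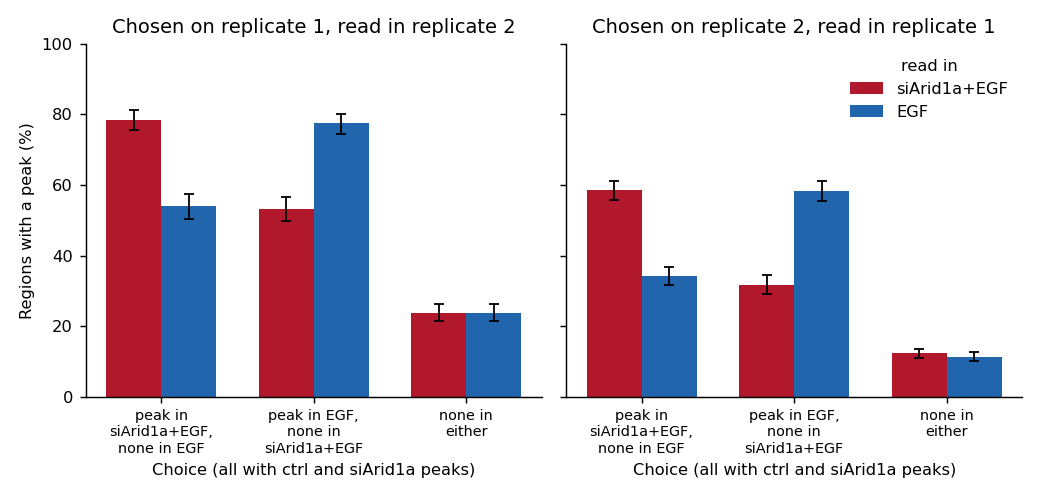
Percent of regions (y axis) with a peak in the siArid1a+EGF and EGF library of the replicate not used for the choice, for 3 choices made on the other replicate (x axis). Bars are shares and error bars 95% Wilson intervals. The 2 colours change order between the first and second choice and are level in the third.

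Of the regions with a peak in all 6 libraries, 12 were ranked highest by their lowest score percentile within a list. The first lay on chromosome 13 from 21622528 to 21623133 (all positions are in build mm9). It was covered over 362 and 423 bp with knockdown and EGF, 457 and 455 bp with knockdown, in neither EGF library, and over 338 and 477 bp in control cells. As the rule demands, no region named here had a peak in an EGF library. Its lengths with knockdown and EGF lay between the control values, and its fold enrichment was 5.34 and 6.00 with knockdown and EGF, 7.90 and 6.97 with knockdown, and 5.66 and 6.28 in control cells. The nearest EGF peak was 51.6 kb away. On chromosome 19, a region from 53403600 to 53404617 had 526 and 1002 bp with knockdown and EGF, 483 and 942 bp with knockdown and 795 and 812 bp in control cells. It was the one among the 12 whose fitted difference between knockdown with EGF and knockdown was above 0, at 0.08 ± 0.41 (SE, n = 2 each), and that sign turned without the first knockdown library or the second library of knockdown with EGF (-0.29 and -0.28).

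In 3 others of the 12, and in the region on chromosome 8 from 114045419 described below, lengths with knockdown and EGF overlapped those with knockdown. On chromosome X from 7182045 to 7182565, covered length was 437 and 294 bp with knockdown and EGF, 355 and 521 bp with knockdown and 251 and 368 bp in control cells. On chromosome 1 from 133693623 to 133694680 it was 656 and 405 bp with knockdown and EGF, 860 and 560 bp with knockdown and 273 and 473 bp in control cells, and on chromosome 4 from 154252201 to 154253004 it was 420 and 306 bp with knockdown and EGF, 365 and 804 bp with knockdown and 316 and 289 bp in control cells.

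Other regions of the 12 kept less of their length. On chromosome 6 from 92164298 to 92165278, 267 and 232 bp were covered with knockdown and EGF, 981 and 393 bp with knockdown and 721 and 710 bp in control cells. Both values with knockdown and EGF were the lowest of the 6. On chromosome 9 from 4371262 to 4374050, 566 and 603 bp were covered with knockdown and EGF, 2576 and 1920 bp with knockdown and 288 and 1161 bp in control cells. This region had the largest difference between knockdown and control among the 12, at 1.57 ± 0.51 (SE, n = 2 each), and lay 1.48 kb from a region with a peak in all 8 libraries. On chromosome 5 from 54091127 to 54094744, 706 and 435 bp were covered with knockdown and EGF, 3208 and 2634 bp with knockdown and 1761 and 2810 bp in control cells. The difference between knockdown with EGF and knockdown was -2.03 ± 0.30 there (SE, n = 2 each), and it was the only one of the 12 among the 31 regions that limma called. Without any one of the 4 knockdown libraries it was not called.

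The other 4 of the 12 comprised 2 on chromosome 8, from 3392766 to 3393432 and from 114045419 to 114046552, one on chromosome 15 (44618988 to 44619900) and one on chromosome 11 (118901851 to 118902292). The region on chromosome 8 from 114045419 showed wide gaps between duplicates, with 292 and 1027 bp for knockdown with EGF, 944 and 965 bp for knockdown and 243 and 1039 bp for control. The region on chromosome 11 was among the smallest, with 226 and 225 bp for knockdown with EGF, 317 and 442 bp for knockdown and 231 and 299 bp for control.

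**Figure D5:**
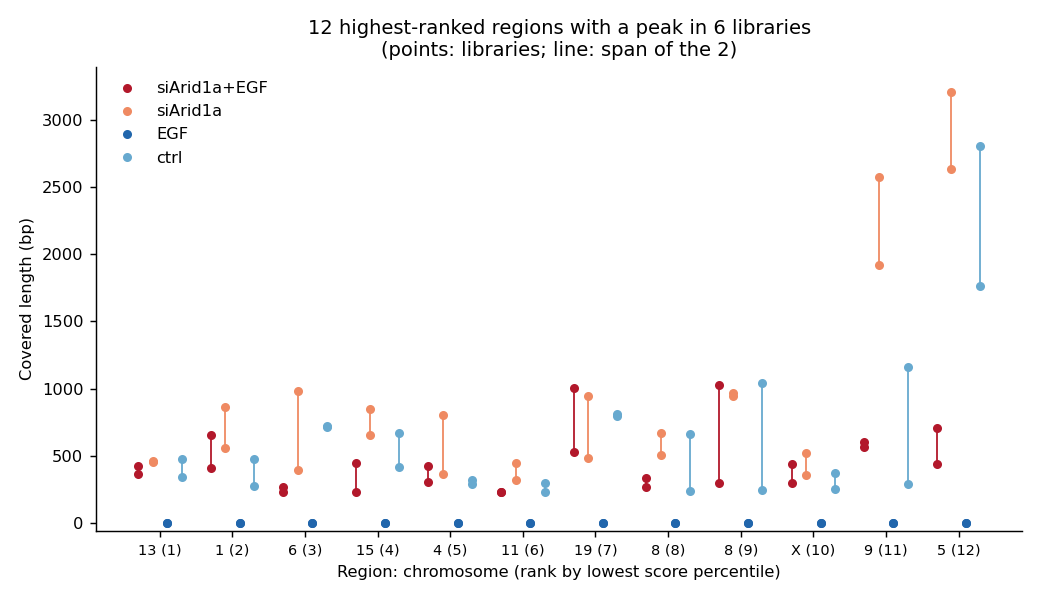
Covered length (bp, y axis) in each library of the 12 highest-ranked regions with a peak in 6 libraries (x axis, chromosome and rank). Points are libraries, joined per group. All EGF points are at 0, and the siArid1a+EGF points of the regions on chromosomes 9 and 5 at the right lie far under the siArid1a points.

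Regions with a peak in 1 library of knockdown with EGF alone were also ranked by their lowest score percentile, so these examples score high for the class although some are near the shortest length a peak can have. Those ranked highest with the peak in the first library lay on chromosome 11 from 45793799 to 45794319, with 201 bp covered in it, and on chromosome 16 from 10193045 to 10193476, with 202 bp. Those with the peak in the second alone lay on chromosome 15 from 82194945 to 82195369, with 228 bp, and on chromosome 5 from 122714017 to 122714449, with 200 bp, the shortest length any peak has. On chromosome 9 from 60776214 to 60778872, by contrast, 469 bp remained in the first library and none in the second, against 2583 and 2319 bp with knockdown and 385 and 2242 bp in control cells. On chromosome 2 from 168297745 to 168299277, 662 bp remained in the second library and none in the first, against 834 and 1533 bp with knockdown and 330 and 475 bp in control cells.

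The 3 widest regions held long peaks without EGF and short remains with it. On chromosome 7 from 140199085 to 140206332 (7248 bp), 979 and 453 bp were covered with knockdown and EGF, 6030 and 6124 bp with knockdown and 2679 and 5674 bp in control cells. The difference between knockdown with EGF and knockdown was -2.84 ± 0.40 (SE, n = 2 each), and limma called it with all libraries but without any one of the 4 knockdown libraries did not. On chromosome 4 from 153991036 to 153996902, 1434 and 594 bp were covered with knockdown and EGF, 5867 and 3467 bp with knockdown and 588 and 3070 bp in control cells. On chromosome 14 from 80518652 to 80524421, 1248 and 1407 bp were covered with knockdown and EGF, 5436 and 4505 bp with knockdown and 1482 and 4471 bp in control cells, and a region with a peak in all 8 libraries began or ended 0.759 kb away. In all 3 both knockdown libraries exceeded both libraries of knockdown with EGF. On chromosome 4 the duplicates lay far apart, most of all in control cells (588 and 3070 bp). The difference between knockdown with EGF and knockdown was -2.05 ± 0.71 there (SE, n = 2 each). Limma called neither that region nor the one on chromosome 14.

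The weakest of the included peaks with knockdown and EGF sat near the lower end of their list. On chromosome 11 from 74466136 to 74467417 the first library of knockdown with EGF had a −log10 q of 1.07, on chromosome 15 from 77122055 to 77123916 it had 1.08, and on chromosome 6 from 112966749 to 112967853 it had 1.09. The lowest in that whole list was 1.03. Covered length on chromosome 11 was 455 and 796 bp with knockdown and EGF, 625 and 786 bp with knockdown and 1198 and 699 bp in control cells. The weak peak in the first library of knockdown with EGF was thus the shortest at this place. Its 455 bp lay close to 469 bp, the median for peaks of the chosen regions in that library. The longer peak in the second library had a −log10 q of 1.44.

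At one end of the difference between knockdown with EGF and knockdown, for which they were picked, were regions that had lost most. On chromosome 14 from 80016728 to 80021786, 281 bp remained in the first library of knockdown with EGF and none in the second, against 4363 and 3377 bp with knockdown and 611 and 3150 bp in control cells. On chromosome 1 from 106845653 to 106849397, 312 bp remained in the first and none in the second, against 3182 and 3315 bp with knockdown and 1341 and 3729 bp in control cells. On chromosome 11 from 57844554 to 57850204, 500 bp remained in the first and none in the second, against 2294 and 5651 bp with knockdown and 414 and 1033 bp in control cells. In these the rule was met by a trace of the peak, and their differences of -3.70, -3.43 and -3.35 were near or below those between EGF and control cells at the same places (-3.04, -3.62 and -2.12).

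At the other end, on chromosome 10 from 13684404 to 13685410, 823 and 505 bp were covered with knockdown and EGF, 0 and 779 bp with knockdown and 832 and 990 bp in control cells, and an EGF peak lay 0.769 kb from its edge. On chromosome 14 from 8794641 to 8796065, 0 and 1165 bp were covered with knockdown and EGF, 0 and 223 bp with knockdown and 903 and 574 bp in control cells. Each rests on a single library. On chromosome 10 the sign turned without the first knockdown library, which had no peak (-0.21). On chromosome 14 it turned without the second library of knockdown with EGF, which held the peak of 1165 bp (-0.54).

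By position, which the rule did not use, the regions lay a little more often near stable acetylation than regions at large. A region with a peak in all 8 libraries lay within 10 kb of 220 of the 546 (40.3%), of 188 of the 784 regions of the exchanged rule (24.0%) of 287 of the 894 losses without a peak in knockdown with EGF (32.1%), and of 6193 of all 17313 regions without a peak in all 8 (35.8%). The median distance was 14.6 kb for the regions, 28.9 kb for the exchanged rule and 22.4 kb for the other losses. It was 18.4 kb for the 17313 regions. A peak of an EGF library lay within 1 kb of the edge of 9 of the 546 (1.65%), and of 7 of the 894 other losses (0.783%). No p is given for these shares, since neighbouring regions are not independent.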

How the data were processed

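H3K27ac peaks were analysed in 8 libraries of 266-6 cells, 2 in each of 4 groups assigned by sample title. The submitters' processing notes name build mm9 and, without role or order, MACS2 2.1.1.20160309.0, deepTools 3.0.2, SAMtools and Bowtie2 2.3.4.2. The authors deposited 1 peak list per library with 9 columns and no header, so peaks were called per library. The deposited score is 10 times the −log10 q-value, the deposited −log10 p and −log10 q come from the caller, and the deposited fold is a ratio over its background. These are the authors' values, used to describe or rank peaks within a list. The caller's settings, any input library and the read depth are not given in these sources.

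Covered length per region is the summed length of a library's peaks. Limma 3.58.1 (R 4.3.3, empirical Bayes with a trend, Benjamini-Hochberg adjustment, threshold 0.05) was fitted to log2(covered bp + 200) over the 28146 regions that at least 2 libraries hold, with a mean per group and the spread of all 8 libraries. The interval steps and limma were tested on simulated data. Other steps used matplotlib 3.10.9, SciPy 1.17.1, NumPy 2.4.6 and pandas 2.3.3 in Python 3.11.15. Members, comparisons and alternatives were chosen with earlier results of these data known. Named regions are the 12 of highest lowest score percentile with peaks in 6 libraries, the leading ones with a single peak in knockdown with EGF, the 3 widest, the 3 of lowest percentile, and the 3 at each end of the difference in knockdown cells. Not every one is described. A genome and annotation of build mm9 were not used here, so sequences, motifs, genes and gene lists were not analysed. Alternatives were a stricter q, lists of equal length, merging across gaps, a minimum cover, a replicate block, quantile normalization, other filters and pseudocounts, and each library left out in turn.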

Additional observations from a re-analysis of the deposited data

Results flagged for a closer look

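In 1 of the 546 regions (0.18%) both libraries moved up with EGF in knockdown cells while both moved down in intact cells, where the choice of the region fixed the direction. The move up in knockdown cells alone was found in 6.4% of all regions tested. It lies on chromosome 19 from 47089167 to 47089801. Covered length was 285 and 422 bp with knockdown and EGF, 0 and 264 bp with knockdown, 0 bp in both EGF libraries and 273 and 595 bp in control cells. The move up thus rests on a knockdown library without a peak, and the closest values, 285 and 264 bp, were near each other. The difference between knockdown with EGF and knockdown was 0.85 ± 0.52 on the log2(covered bp + 200) scale (SE, n = 2 each). The difference between the states was not tested, since it picked the region.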

How the results depend on the processing

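The number of regions was 536 with peaks of a −log10 q of at least 2, 408 with lists of equal length and 544 with peaks merged up to 200 bp apart, and 826 where peaks had to cover 50% of a region. Leaving out one library gave 351 to 1186 regions, 230 to 585 regions in 6 libraries (or the 5 left) and a share of 20.0 to 48.0% of the EGF losses. For the difference between knockdown with EGF and knockdown, limma called 31 regions lower. It called 8 with a pseudocount of 50 bp, 50 with 1000 bp, 19 with no filter on regions, 10 after quantile normalization and 11 with a replicate block, and 0 to 88 with one library left out. As a share of the regions this was 5.68%, beside 6.00% of all regions tested. With 50 bp it was 1.47% beside 7.10%, and with 1000 bp 9.16% beside 5.36%, so whether the share lay under or over the background depended on the pseudocount. It was 3.48% beside 3.69% with no filter, 1.83% beside 1.85% after quantile normalization and 2.01% beside 3.84% with a replicate block. Limma called the following counts in the other direction. It called 0 regions higher, and 0 to 1 with one library left out. The median of -1.09 became -1.67 with 50 bp, -0.48 with 1000 bp and -0.39 after quantile normalization, which moved the median of all regions to 0.08, and was -1.20 to -0.52 with one library left out. Relative to all regions it was -0.78, -0.47 after quantile normalization, -1.32 with 50 bp, -0.29 with 1000 bp, and -0.25 and -0.34 without the first and second library of knockdown with EGF. Same-numbered libraries of different groups deviated together by correlations of -0.01 to 0.03 only, so the numbers were not taken to pair the libraries.

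With the stricter q, regions chosen on replicate 2 had a peak of knockdown with EGF in replicate 1 in 64.4%, and those chosen on replicate 1 an EGF peak in replicate 2 in 59.4%. With lists of equal length, 73.5% had a peak of knockdown with EGF and 47.6% an EGF peak in replicate 2, and 71.7% and 45.5% in replicate 1. The cause of these shifts was not tested.

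With one library left out, the fitted difference in knockdown cells changed sign in 6 of 32 named regions. It ranged from -0.29 to 0.45 on chromosome 19 at 53403600, -1.23 to 0.088 on chromosome 8 at 114045419, -0.36 to 0.015 on chromosome X at 7182045, -0.46 to 0.14 on chromosome 11 at 74466136, -0.21 to 2.09 on chromosome 10 at 13684404 and -0.54 to 2.23 on chromosome 14 at 8794641. Lengths of peaks near the 200 bp minimum limit what can be read from narrow regions.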

Other observations

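The regions were spread over all of the 19 autosomes and X. Chromosome 11 held the largest number, 51, followed by chromosome 5 with 46 and chromosome 7 with 43. Of all merged regions of a chromosome, the regions made up between 0.709% on chromosome 18 and 2.29% on chromosome 8, and on chromosome 8 they were 35 of 57 regions lost with EGF in intact cells (61.4%). On chromosome 1 they were 25 of 90 (27.8%).

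Few lay together. With gaps of at most 50 kb, 492 regions stood alone, 24 pairs formed and 2 runs held 3 regions each. One run of 3 lay on chromosome 19 from 7177708 to 7240466, a span of 62.8 kb that held 17 merged regions, 5 of them found in all 8 libraries. The other lay on chromosome 13 from 54444289 to 54521017, a span of 76.7 kb with 9 merged regions, 2 of them found in all 8. The closest pair lay on chromosome 11 from 46115071 to 46119868. The regions with a peak in both libraries of knockdown with EGF were 240 of the 684 regions (35.1%) with that pattern and no EGF peak.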
